A study of Mus musculus with 62 samples.

Results

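The 10 genes described here encode mitochondrial enzymes of branched-chain amino acid breakdown and the kinase that restrains it: Bcat2, Bckdha, Bckdhb, Dbt, Bckdk, Ivd, Mccc1, Mccc2, Hibadh and Pcca. They were chosen by name from the 47643 gene symbols of the deposited table, and all 10 were present and passed the filter on low values. RNA of mouse brown adipose tissue was sequenced in 62 libraries from female mice of 2 months of age. The mice received melanoma cells that the labels call cachectic (CAC) or non-cachectic (NCAC), while Con mice had a mock injection. The time points were 2, 4, 6 and 8 weeks. Each of the 12 groups has 5 libraries, labelled biological replicates, except CAC at 8 weeks with 7. Cachexia is a loss of body fat and muscle seen with some cancers. The melanoma lines are not named in the labels. The sample labels give the strain as C57BL/6J while the series text names NCI Ath/nude mice, the extraction text mentions an LLC model at 3 weeks, and the sample number 56 stands in 2 titles at 4 weeks, 1 of CAC and 1 of Con. The groups used here follow the sample labels.

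Leucine, isoleucine and valine enter cells through amino acid transporters and pass into mitochondria, where the transaminase Bcat2 removes their nitrogen. The branched-chain ketoacid dehydrogenase complex then commits the carbon skeletons to oxidation. It joins an E1 decarboxylase, built of alpha (Bckdha) and beta (Bckdhb) subunits, to the E2 transacylase Dbt and the E3 subunit Dld. The kinase Bckdk switches it off by phosphorylating E1, and the phosphatase Ppm1k switches it on. Below the complex the pathway splits into arms for each amino acid. Brown fat is known to take up and burn these amino acids when it makes heat, with Slc25a44 as their mitochondrial carrier.

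The deposited unit is TPM, a transcript abundance scaled for length in which every library sums to the same total, so depth is unknown and no counting interval can be given. Differences are log2(TPM + 1) of the first group minus the second, which understates changes of low genes, and a gene is called where limma gives an adjusted p under 0.05 (Benjamini-Hochberg over all 12581 tested genes). A second scale, called rescaled below, divides each library by its median-of-ratios size factor, the median ratio of its genes to their geometric mean over libraries. Mitochondrially encoded genes took 44.3 to 55.6% of TPM in CAC at 8 weeks, 56.0 to 62% in NCAC and 59.9 to 65.5% in Con. The median difference of all tested genes for CAC against Con at 8 weeks was 0.28 before rescaling and -0.01 after it. At 8 weeks the summed level of the 8 macrophage markers was 226 to 544 TPM in CAC, 89.2 to 167 in NCAC and 114 to 149 in Con, with 8 of 8 called higher against both on both scales. That of the 10 brown adipocyte markers, of which 2 were called higher and 2 lower than Con in TPM and 0 and 4 after rescaling, was 7361 to 11126 TPM in CAC and 9584 to 12117 in Con. Ucp1, the uncoupling protein that defines brown fat, read 1639.8 to 4659 TPM in CAC and 4424 to 5671 in Con at 8 weeks. The summed level of the 5 melanoma markers, of which none passed the filter on low values, was 0.796 to 3.28 TPM in CAC at 8 weeks, 0.694 to 1.06 in NCAC and 0.456 to 1.05 in Con, with Tyr listed at 0 in all of these libraries. Of 7 epithelial markers 4 were called lower in CAC than in Con at 8 weeks on both scales, and of 12 muscle markers limma called 0 (0 at an unadjusted p under 0.05). Con libraries 3 and 4 of 4 weeks stood apart from the other 3 in mitochondrial share, and CAC library 3 of 8 weeks from the other 6 in Itih4, an acute-phase gene. The part of macrophages, epithelium, melanoma markers, mitochondrial share or brown adipocyte content in the member differences was not tested.

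Bckdha, the E1 alpha subunit, had the highest level of the 10 members, with a median of 529 TPM over the 62 libraries. Hibadh, the hydroxyisobutyrate dehydrogenase of the valine arm, followed at 353 TPM. Bcat2 stood at 185, Bckdhb at 164, Dbt at 139, Ivd at 123 and Pcca at 108 TPM. The lowest medians were those of Mccc2 at 94.5, Bckdk at 45.2 and Mccc1 at 39.4 TPM. The E1 alpha transcript thus stood above those of E1 beta and E2 in the same complex, but not above that of the E3 subunit Dld. At 8 weeks Dld had a mean of 677 TPM in CAC and 662 in Con, beside 570 and 459 for Bckdha. The ratio of Bckdha to Bckdhb within a library ran at that week from 2.40 to 3.84 (median 3.28) in CAC. In Con it ran from 2.83 to 3.43 (median 3.22). The paired carboxylase subunits were also unequal, with Mccc2 to Mccc1 from 1.94 to 2.72 (median 2.26) in CAC and 2.05 to 2.74 (median 2.33) in Con, ranges that overlapped. Among the 12 group means Bcat2 varied most, by 1.83 times from Con at 8 weeks to CAC at 8 weeks, and Hibadh least, by 1.23 times.

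In the order of the 12 group means, Bcat2 was highest in CAC at 8 weeks, followed by NCAC at 6 weeks (198 ± 28.8 TPM (SD, n = 5)) and Con at 4 weeks (193 ± 89.7 TPM (SD, n = 5)), and lowest in Con at 8 weeks, just below Con (147 ± 33.4 TPM (SD, n = 5)) and NCAC (148 ± 51.7 TPM (SD, n = 5)) at 2 weeks. The neighbours below the top group lie within 1 SD of each other. All orders in this paragraph are in TPM, and they change with rescaling. Size factors were 1.35 and 1.36 in Con libraries 3 and 4 at 4 weeks and 0.786 to 0.929 in Con at 8 weeks. After rescaling Con at 8 weeks was not the lowest group for Bcat2, Bckdha or Bckdhb, and Con at 4 weeks was not the highest for Hibadh or Bckdhb. CAC at 8 weeks was also the highest group for Dbt (151 ± 28.6 TPM (SD, n = 7)) and Mccc1 (45.9 ± 7.74 TPM (SD, n = 7)), in both cases by less than 1 SD over Con at 4 weeks. The other 7 members were highest in Con at 4 weeks, where libraries 3 and 4 stand apart: Bckdha at 659 ± 164 TPM (SD, n = 5), Bckdhb at 191 ± 38.4 TPM (SD, n = 5), Bckdk at 58.4 ± 9.83 TPM (SD, n = 5), Ivd at 144 ± 34.2 TPM (SD, n = 5), Mccc2 at 110.5 ± 20.6 TPM (SD, n = 5), Hibadh at 387 ± 43.1 TPM (SD, n = 5) and Pcca at 131 ± 27.7 TPM (SD, n = 5). The lowest group was CAC at 6 weeks for Ivd and Hibadh, CAC at 4 weeks for Pcca, Con at 8 weeks for Bckdha and Bckdhb, Con at 6 weeks for Bckdk (38.3 ± 3.8 TPM (SD, n = 5)) and Mccc2 (84.1 ± 10.1 TPM (SD, n = 5)), NCAC at 2 weeks for Dbt (116 ± 24.9 TPM (SD, n = 5)) and NCAC at 8 weeks for Mccc1 (36.0 ± 6.34 TPM (SD, n = 5)).

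**Figure D1:**
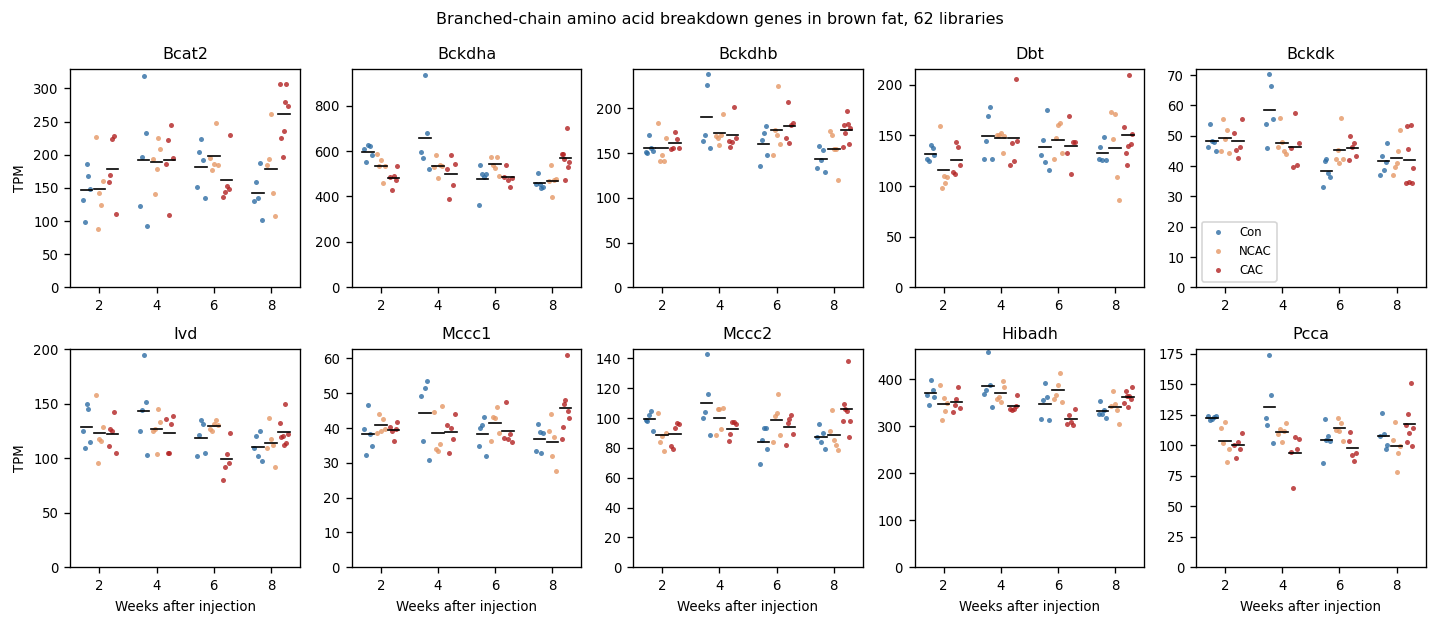
TPM of the 10 genes in each of the 62 libraries (y axis) by weeks after injection (x axis), with Con in blue, NCAC in orange and CAC in red; black lines are group means. Bcat2 of CAC at 8 weeks sits between 197 and 307 TPM, above all 5 Con libraries of that week.

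At 8 weeks the transaminase Bcat2 was higher in CAC than in Con on both scales. Bckdha, Bckdhb, Mccc1 and Mccc2 were called higher in TPM, with rescaled differences slightly below 0 that were not called. The kinase Bckdk and the valine-arm enzyme Hibadh were called lower after rescaling only. In TPM 5 of the 10 members were thus called higher and 0 lower, where 52.1% of all tested genes were called higher, a share near that of the members. Their median log2 difference was 0.22 beside 0.28 for all genes. After rescaling 1 of 10 was higher against 13.5% of all genes, and 2 of 10 were lower against 12.8%. The members' rescaled median was -0.14.

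At 8 weeks Bcat2 was the member with the largest TPM difference between CAC and Con. The 7 CAC libraries lay between 197 and 307 TPM (median 273). The 5 Con libraries read 130.0, 158, 135, 187 and 101 TPM. Every CAC library was above every Con library. The means were 261 ± 42.0 TPM (SD, n = 7) and 142 ± 32.3 TPM (SD, n = 5), a log2 difference of 0.88 (SE 0.23) with an adjusted p of 0.00119. The call held when any 1 library of the 2 groups was left out, and losses given from here on are from leaving out the named libraries singly. After rescaling the difference was 0.53 (SE 0.20) with an adjusted p of 0.0467, and this call was lost without CAC 1, CAC 4, CAC 5, CAC 6, CAC 7, Con 1, Con 2, Con 3 or Con 5 (0.42 to 0.55, adjusted p from 0.0519 to 0.146). CAC library 3, which stood apart in Itih4, had that gene at 41.9 TPM against 709 to 1176 in the other 6, and it was also the CAC library with the lowest Bcat2, at 197 TPM. After rescaling the lowest Bcat2 was instead that of CAC library 2, at 175, with CAC library 3 at 207. In bulk tissue, fewer cells of a type and less RNA per cell cannot be told apart. Bcat2 lies at chr7:45570153-45589711 (mm10, plus strand), and 622 of its exonic bases are shared with the antisense gene 0610005C13Rik; the kit marks strand, but the counting setting is not given in the sources used here.

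The genes of the E1 and E2 subunits of the dehydrogenase complex differed less. Bckdha (chr7:25629946-25658981, minus strand) lay between 472 and 699.9 TPM (median 567) in CAC. Con read 456, 504, 457, 435 and 441 TPM. All but the lowest CAC library were above the highest Con library. The log2 difference was 0.31 (SE 0.10) with an adjusted p of 0.00798. Bckdhb (chr9:83925145-84124240, plus strand), the E1 beta subunit, lay between 157 and 197 TPM (median 178) in CAC. Con read 134, 157, 142, 154 and 129 TPM, so the groups touched only through the lowest CAC library. Its difference was 0.29 (SE 0.10), adjusted p = 0.00944. Both calls held when any 1 library was left out. Dbt (chr3:116513070-116549981, plus strand), the E2 subunit, lay between 121 and 209.6 TPM (median 141) in CAC. Con read 126, 138, 126, 149 and 125 TPM, inside the CAC range. Its difference of 0.16 (SE 0.13) did not pass (adjusted p = 0.310, 95% interval -0.11 to 0.43). After rescaling none of these genes was called, at -0.05 for Bckdha, -0.06 for Bckdhb and -0.19 for Dbt. Bckdha shares 1171 exonic bases with B3gnt8 on the other strand, a gene listed at a median of 0.194 TPM.

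Bckdk (chr7:127904082-127910221, plus strand), the kinase that inactivates the complex, had nearly the same mean TPM in both groups. CAC lay between 34.4 and 53.5 TPM (median 39.2). Con read 37.2, 43.3, 38.8, 41.5 and 47.7 TPM, and the CAC libraries lay on both sides of them. The difference in TPM was -0.004 (SE 0.11), adjusted p = 0.977. Relative to the rescaled libraries Bckdk was lower in CAC, by a log2 difference of -0.35 (SE 0.10) with an adjusted p of 0.00614, and that call held without any 1 library.

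In the leucine arm, Mccc1 (chr3:35959312-36000678, minus strand) and Mccc2 (chr13:99948530-100015639, minus strand) encode the alpha and beta subunits of methylcrotonyl-CoA carboxylase. Mccc1 lay between 36.9 and 61.1 TPM (median 44.9) in CAC. Con read 33.3, 41.0, 38.8, 32.7 and 38.6 TPM, and the ranges overlapped. Its log2 difference was 0.30 (SE 0.11) with an adjusted p of 0.0250, a call lost without CAC 5, Con 1 or Con 4 (0.23 to 0.26, adjusted p from 0.0714 to 0.0878). Mccc2 lay between 87.1 and 138 TPM (median 105) in CAC. Con read 87.1, 95.7, 83.8, 89.8 and 79.1 TPM, again overlapping CAC. Its log2 difference was 0.27 (SE 0.09) with an adjusted p of 0.0137, a call lost without library CAC 5 (0.20, adjusted p = 0.0564). CAC library 5, which held the highest value of both genes, is therefore needed for both calls. After rescaling the differences were -0.05 and -0.08, and neither was called.

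Ivd (chr2:118861954-118882909, plus strand), the isovaleryl-CoA dehydrogenase just above that carboxylase, lay between 112 and 149 TPM (median 120.4) in CAC. Con read 109, 120.2, 102, 125 and 97.1 TPM. Its difference of 0.17 (SE 0.12) did not pass (adjusted p = 0.231), and neither did the rescaled -0.19. Pcca (chr14:122534324-122891100, plus strand), the alpha subunit of propionyl-CoA carboxylase, which takes up the propionyl-CoA from isoleucine and valine, lay between 99.4 and 151 TPM (median 115) in CAC. Con read 108, 126, 109, 97.0 and 100.1 TPM. Its difference of 0.11 (SE 0.11) did not pass either (adjusted p = 0.385), nor did the rescaled -0.24. Ivd and Pcca overlapped widely between the groups. Hibadh (chr6:52546228-52640389, minus strand) lay between 340.3 and 383 TPM (median 364) in CAC. Con read 327, 354, 325, 334 and 317 TPM. Its TPM difference of 0.13 (SE 0.06) missed the threshold (adjusted p = 0.0651), and passed without CAC 4 or Con 2 (0.14 to 0.15, adjusted p from 0.0422 to 0.0464). On the rescaled values it was called in the other direction, -0.23 (SE 0.07) with an adjusted p of 0.0145, lost without library Con 1 (-0.20, adjusted p = 0.0588).

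**Figure D2:**
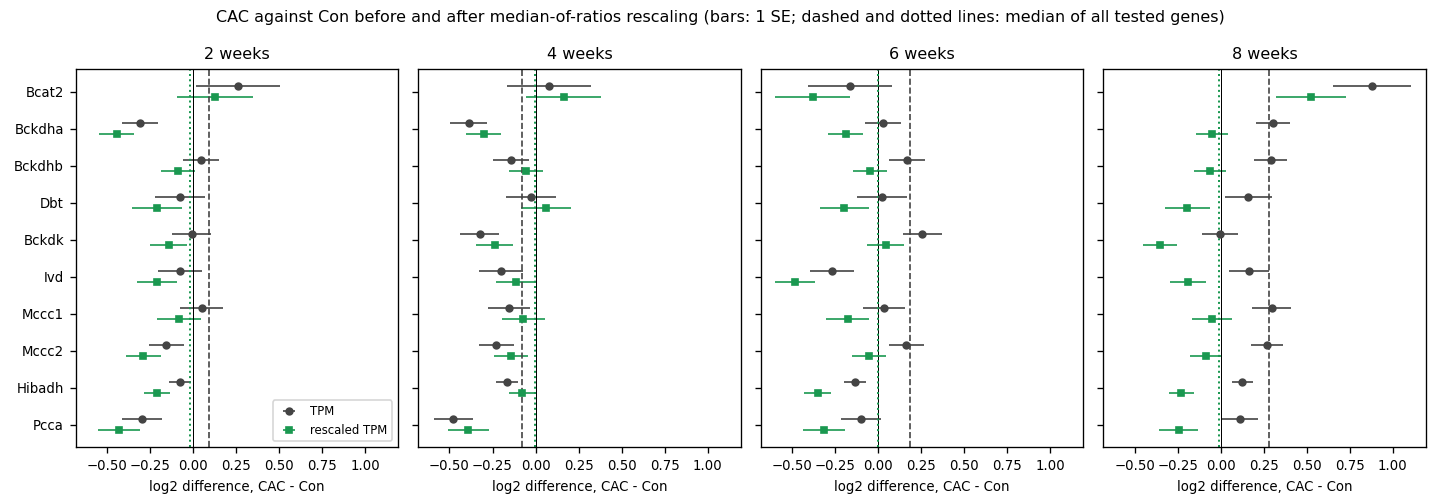
Log2 difference of CAC minus Con (x axis) for each of the 10 genes (y axis) at 2, 4, 6 and 8 weeks, in TPM (grey circles) and after rescaling (green squares), with bars of 1 SE; dashed and dotted lines are the medians of all tested genes. At 8 weeks Bcat2 stands at 0.88 in TPM and 0.53 after rescaling, while Bckdk and Hibadh lie below 0 after rescaling.

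The comparison of CAC with NCAC at 8 weeks shares its CAC libraries with the one above. Bcat2, Bckdha, Mccc1 and Mccc2 were called higher in TPM, and no member was called higher after rescaling, where Mccc2 stood at -0.01. Bcat2 read 185, 193, 261, 142 and 108 TPM in NCAC, and the highest of these fell inside the CAC range. The difference was 0.60 (SE 0.23) with an adjusted p of 0.0323. It was lost without CAC 1, CAC 5, CAC 6, NCAC 4 or NCAC 5 (0.43 to 0.58, adjusted p from 0.0506 to 0.142), and the rescaled difference of 0.33 (SE 0.20) did not pass (adjusted p = 0.229). Bckdha read 467, 539, 398, 471 and 475 TPM in NCAC, overlapping the lower CAC libraries, and differed by 0.28 (SE 0.10) (adjusted p = 0.0224). That call was lost without CAC 5 or NCAC 3 (0.22 to 0.23, adjusted p from 0.0676 to 0.0840). Mccc1 read 39.2, 43.9, 32.1, 37.3 and 27.6 TPM and Mccc2 91.6, 105, 85.4, 81.9 and 78.8 TPM in NCAC. Both ranges overlapped CAC. Their differences were 0.34 (SE 0.11) and 0.25 (SE 0.09), with adjusted p of 0.0144 and 0.0302. The Mccc1 call was lost without CAC 5 or NCAC 5 (0.25 to 0.27, adjusted p from 0.0524 to 0.0834) and the Mccc2 call without CAC 2, CAC 5, NCAC 3, NCAC 4 or NCAC 5 (0.18 to 0.24, adjusted p from 0.0519 to 0.106). Bckdhb at 0.19 (SE 0.10) and Pcca at 0.24 (SE 0.11) did not pass (adjusted p = 0.110 and 0.0644), although Pcca passed without CAC 6 or NCAC 2 (0.28 to 0.31, adjusted p from 0.0268 to 0.0418). The 4 of 10 calls in the higher direction stand beside 37.3% of all tested genes.

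After rescaling, 0 of 10 members were higher in CAC than in NCAC at 8 weeks (all genes: 12.9%), and 1 of 10 was lower, Bckdk, at -0.29 (SE 0.10) (adjusted p = 0.0252; all genes lower: 11.5%). Bckdk read 36.9, 39.6, 40.9, 44.9 and 51.8 TPM in NCAC, within the CAC range. This call was lost without CAC 1, CAC 4, CAC 6, NCAC 4 or NCAC 5 (-0.27 to -0.24, adjusted p from 0.0522 to 0.0894).

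Ratios between members within a library do not depend on how the library is scaled, and are given as a description. At 8 weeks the ratio of Bcat2 to Bckdha ran from 0.348 to 0.581 (median 0.493) in CAC, 0.227 to 0.656 (median 0.359) in NCAC and 0.230 to 0.430 (median 0.296) in Con. Bcat2 to Hibadh ran from 0.540 to 0.876 (median 0.713) in CAC, 0.353 to 0.749 (median 0.517) in NCAC and 0.319 to 0.561 (median 0.416) in Con. CAC had the highest median of both ratios, but its range overlapped those of the other groups. Bckdk to Bckdha, kinase to substrate, ran from 0.0586 to 0.0909 (median 0.0737) in CAC, 0.0736 to 0.109 (median 0.0953) in NCAC and 0.0816 to 0.108 (median 0.0860) in Con. It was lowest by median in CAC at 8 weeks, while at 2 weeks CAC had the highest of the 3 medians, from 0.0870 to 0.106 (median 0.104) against 0.0765 to 0.113 (median 0.0871) in NCAC and 0.0761 to 0.0980 (median 0.0772) in Con. The order of the groups in this ratio thus differed between 2 and 8 weeks.

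**Figure D3:**
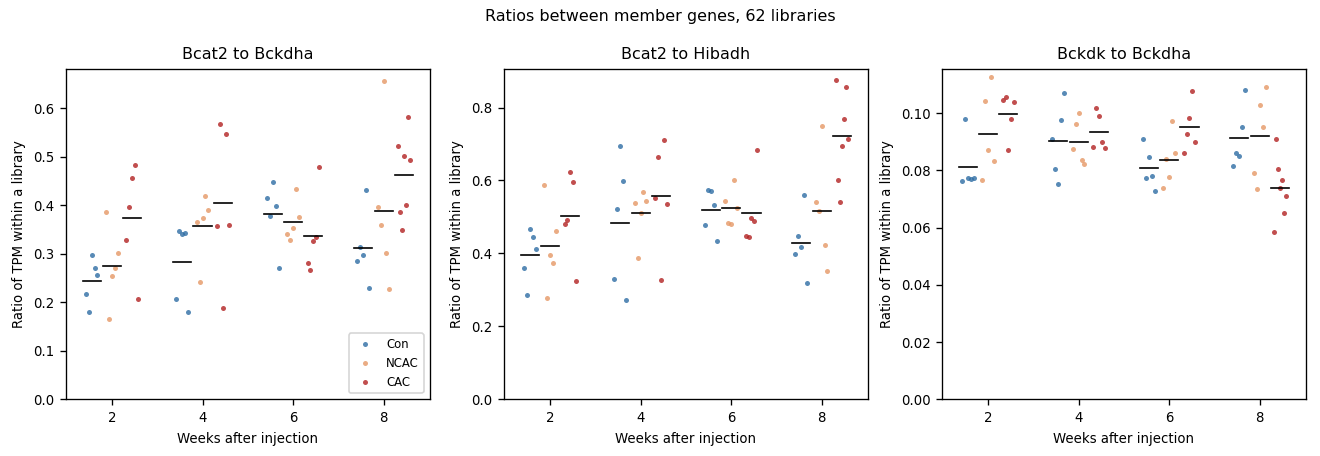
Ratio of the TPM of 2 genes within each of the 62 libraries (y axis) by weeks after injection (x axis), for Bcat2 to Bckdha, Bcat2 to Hibadh and Bckdk to Bckdha; colours are Con (blue), NCAC (orange) and CAC (red), and black lines are group means. At 8 weeks the CAC values of Bcat2 to Hibadh run from 0.540 to 0.876 and those of Con from 0.319 to 0.561.

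At 6 weeks Ivd and Hibadh were lower in CAC than in NCAC. Ivd read 80.2, 92.4, 103, 96.0 and 123 TPM in CAC. NCAC read 127, 125, 132, 135 and 131 TPM, and every NCAC library was above every CAC library. The difference was -0.40 (SE 0.13) with an adjusted p of 0.0381. In TPM this call was lost without CAC 1, CAC 2, CAC 4, NCAC 1, NCAC 2, NCAC 3, NCAC 4 or NCAC 5 (-0.41 to -0.33, adjusted p from 0.0521 to 0.162), while the rescaled difference of -0.48 (SE 0.11) (adjusted p = 0.00304) passed without any 1 library. Hibadh read 305, 323, 309, 303 and 337 TPM in CAC. NCAC read 358, 367, 388, 414 and 352 TPM, with no overlap. It differed by -0.25 (SE 0.06) in TPM (adjusted p = 0.00785) and by -0.33 (SE 0.08) after rescaling (adjusted p = 0.00245), and both calls held without any 1 library. The TPM call of Hibadh was lost in a fit of only these 2 groups (adjusted p = 0.0727). The 2 of 10 members called lower compare with 1.95% of all tested genes in TPM and 4.51% after rescaling.

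Against Con at 6 weeks, where Ivd read 102, 121, 135, 132 and 105 TPM and Hibadh 316, 355, 392, 361 and 312 TPM, the CAC libraries overlapped Con for both genes. The TPM differences of -0.27 (SE 0.13) for Ivd and -0.13 (SE 0.06) for Hibadh did not pass (adjusted p = 0.118 and 0.119). After rescaling both were called lower, at -0.48 (SE 0.11) with an adjusted p of 0.00343 and at -0.35 (SE 0.08) with an adjusted p of 0.00145, also without any 1 library. In TPM, limma called 0 of 10 members at 6 weeks (3 at an unadjusted p under 0.05) beside 21.7% of all genes in either direction. After rescaling the 2 of 10 lower members stood beside 2.93%. The median of all genes was 0.18 in TPM for this comparison, and mitochondrially encoded genes took 50.9 to 53.5% of TPM in CAC, 48.4 to 61.8% in NCAC and 57.1 to 66.1% in Con. The summed macrophage markers were 307 to 373 TPM in CAC, 123 to 392 in NCAC and 109 to 357 in Con at that week, with 5 of 8 called higher in CAC than in Con in TPM, 4 after rescaling, and 4 higher than in NCAC on both scales. The summed epithelial markers were 6.27 to 20.2, 1.21 to 163 and 11.8 to 85.0 TPM, with 0 of 7 called by limma (4 at an unadjusted p under 0.05 against NCAC). The part of these in the Ivd and Hibadh values was not tested.

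Over the 12 group means of rescaled log2 values, Ivd and Hibadh had the highest correlation of any member pair (Pearson r = 0.93), and Bcat2 and Bckdk the lowest (r = -0.75). Bckdha and Pcca (r = 0.87) and Mccc2 and Pcca (r = 0.86) also ran together, whereas Bcat2 had r between -0.75 and 0.38 with the other 9. These are descriptions over 12 points that share libraries. The bases before the start sites of Ivd and Hibadh, the closest pair, and of Bcat2, which ran apart from both, are shown for comparison (RefSeq, GRCm38.p6, 250 bases 5′ to 3′ ending at the start site). They lie at chr2:118861744-118861993 on the plus strand, chr6:52640301-52640550 on the minus strand and chr7:45569903-45570152 on the plus strand. The GENCODE starts of Ivd (118861954) and Hibadh (52640389) fall inside these windows. The last bases shown for both therefore lie within the genes as positioned above. Capitals mark the letters CCAAT or, read on the other strand, ATTGG.
Ivd: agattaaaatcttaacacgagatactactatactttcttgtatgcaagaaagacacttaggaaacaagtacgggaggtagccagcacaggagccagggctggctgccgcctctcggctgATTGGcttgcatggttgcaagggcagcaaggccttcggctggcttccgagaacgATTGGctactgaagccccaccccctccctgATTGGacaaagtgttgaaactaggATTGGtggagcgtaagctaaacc
Hibadh: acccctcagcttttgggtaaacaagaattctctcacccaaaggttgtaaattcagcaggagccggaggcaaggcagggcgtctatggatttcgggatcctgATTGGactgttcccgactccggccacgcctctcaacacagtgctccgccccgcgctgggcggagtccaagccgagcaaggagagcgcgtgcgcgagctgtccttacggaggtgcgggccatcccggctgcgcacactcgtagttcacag
Bcat2: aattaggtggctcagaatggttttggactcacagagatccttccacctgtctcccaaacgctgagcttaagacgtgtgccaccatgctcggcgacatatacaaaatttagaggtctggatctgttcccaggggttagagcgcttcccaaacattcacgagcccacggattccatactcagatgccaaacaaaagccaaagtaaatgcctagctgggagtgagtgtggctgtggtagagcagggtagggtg
Ivd held 4 such matches and Hibadh 1, while Bcat2 held none in this window or in its other annotated one. The window of Bckdha, which had r = 0.75 with Ivd and 0.70 with Hibadh, held none either, so the matches did not follow these correlations throughout. RefSeq entries were found for 9 of the 10 members, in 12 windows of 300 bases that run 50 bases past the start site, and Dbt had no entry. On either strand CCAAT was in 9 of the 12 windows, from 7 genes, against 37.4% of all 32851 promoter windows of that length. CACCC, the core of the boxes that Krüppel-like factors such as Klf15 bind, was in 9 of 12 against 57.5%. GGGCGG was in 4 against 35.7%, TGTTCT in 2 against 19.0%, and TTCNNNGAA in 1 against 8.30%. CACGTG was in 1 against 7.15%, TGACG in 1 against 20.8%, and TCAAGGTCA in 0 against 0.423%. Matches of different motifs did not overlap, and a match is a run of letters, not a shown site.

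At 4 weeks Bckdha and Pcca were lower in CAC than in Con in TPM. Bckdha read 521, 391, 582, 449 and 544 TPM in CAC. Con read 594, 569, 933, 678 and 519 TPM. Pcca read 94.6, 65.2, 107, 97.4 and 105 TPM in CAC. Con read 123, 117, 174, 141 and 102 TPM. For both genes the groups overlapped, the highest Con value was that of library 3 and the lowest CAC value that of library 2. The differences were -0.39 (SE 0.11) for Bckdha (adjusted p = 0.0278) and -0.48 (SE 0.11) for Pcca (adjusted p = 0.0124), 2 of 10 members beside 3.03% of all genes called lower. After rescaling 1 of 10, Pcca, was called lower at -0.39 (SE 0.12) (adjusted p = 0.0457; all genes: 2%).

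Con libraries 3 and 4 of 4 weeks differ from the other 3 in the share of mitochondrially encoded genes, at 39.6 and 39.7% against 57.1 to 58.7%. Without both, Bckdha differed by -0.19 (adjusted p = 0.443) and Pcca by -0.29 (adjusted p = 0.304), and neither was called. The rescaled Pcca value without them was -0.40 (adjusted p = 0.186). Left out singly, CAC 2, CAC 4, Con 3 or Con 4 (-0.37 to -0.25, adjusted p from 0.0792 to 0.206) took away the Bckdha call, and CAC 2, Con 3 or Con 4 (-0.44 to -0.35, adjusted p from 0.0616 to 0.114) that of Pcca. The rescaled Pcca call was lost without CAC 1, CAC 2, CAC 4, Con 1, Con 2, Con 3 or Con 4 (-0.43 to -0.25, adjusted p from 0.0539 to 0.303). Bckdk differed by -0.32 (SE 0.11) (adjusted p = 0.0882), a value that passed without CAC 3 or Con 2 (-0.41 to -0.40, adjusted p from 0.0240 to 0.0348). Hibadh at -0.16 (SE 0.06) (adjusted p = 0.128) passed without library Con 5 (-0.21, adjusted p = 0.0447). At 4 weeks the muscle marker sums overlapped, at 2015 to 3476 TPM in CAC and 497 to 21625 in Con, and 1 of 8 macrophage markers was called higher in CAC in TPM and 2 after rescaling.

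At 2 weeks the same genes, Bckdha and Pcca, had the largest negative values. Bckdha read 486, 428, 489, 474 and 536 TPM in CAC. Con read 608, 551, 626, 621 and 581 TPM. Pcca read 101, 89.6, 103, 96.9 and 110.3 TPM in CAC. Every Con library was above every CAC library for both genes, Con being at 124, 121, 121, 123 and 124 TPM for Pcca. In TPM the differences of -0.31 (SE 0.11) and -0.30 (SE 0.11) did not pass (adjusted p = 0.0836 and 0.140), and Bckdha passed without library CAC 5 (-0.35, adjusted p = 0.0482). By limma 0 of 10 members were called (2 at an unadjusted p under 0.05) beside 4.63% of all genes in either direction. After rescaling both were called lower, Bckdha at -0.44 (SE 0.10) (adjusted p = 0.0117) and Pcca at -0.43 (SE 0.12) (adjusted p = 0.0304), 2 of 10 beside 0.946% of all genes. The rescaled Bckdha call was lost without library CAC 2 (-0.42, adjusted p = 0.0594), and that of Pcca without CAC 1, CAC 2, CAC 4, Con 1, Con 3 or Con 5 (-0.44 to -0.39, adjusted p from 0.0528 to 0.0961). NCAC stood between the 2 groups by mean, at 536 ± 47.5 TPM (SD, n = 5) for Bckdha and 104 ± 13.4 TPM (SD, n = 5) for Pcca, overlapping CAC for both. For Pcca the NCAC libraries, at 86.5 to 119.5 TPM, also lay below every Con library. For Bckdha, at 461 to 588 TPM, NCAC overlapped Con.

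Markers of skeletal muscle and macrophages also differed between CAC and Con at 2 weeks. The summed skeletal muscle markers were 1419 to 16034 TPM in CAC, 1346 to 4563 in NCAC and 90.2 to 2639 in Con, with 11 of 12 called higher in CAC than in Con on both scales. The summed macrophage markers were 156 to 235, 85.6 to 207 and 83.6 to 119.7 TPM, with 6 of 8 called higher in CAC than in Con on both scales and no overlap of CAC and Con. Of the brown adipocyte markers limma called 0 of 10 (0 at an unadjusted p under 0.05 in TPM), at sums of 8161 to 14605 TPM in CAC and 8095 to 11507 in Con. The part of muscle or macrophage RNA in the lower Bckdha and Pcca values was not tested.

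CAC and NCAC gave 0 of 10 called members at 2 weeks and at 4 weeks by limma, on either scale. At 2 weeks 0.0397% of all genes were called in TPM and 0.0159% after rescaling, and at 4 weeks 0.588% and 0.978%. At an unadjusted p under 0.05 there were 0 members at 2 weeks and 1 at 4 weeks, in TPM.

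Between NCAC and Con limma called 0 of 10 members at each of the 4 weeks, on either scale. Of all genes 0%, 0.00795%, 0% and 0% were called in TPM at 2, 4, 6 and 8 weeks, and 0.0397%, 0.00795%, 0% and 0% after rescaling. At an unadjusted p under 0.05 there were 1, 2, 2 and 0 members in TPM, in the order of the weeks. Bckdha at 4 weeks (-0.28 (SE 0.11), adjusted p = 0.194) passed without library Con 5 (-0.36, adjusted p = 0.0489). Bcat2, higher in CAC at 8 weeks, read 0.28 (SE 0.24) for NCAC against Con at that week, with a 95% interval of -0.21 to 0.78.

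The change over time of the CAC against Con difference was tested directly. In TPM, from 2 to 8 weeks, it became more positive for Bckdha, by 0.62 (SE 0.15) (adjusted p = 0.00475), as CAC went from below Con at 2 weeks (-0.31) to above it at 8 weeks (0.31). Mccc2 changed by 0.43 (SE 0.14) (adjusted p = 0.0378), from -0.15 to 0.27. The Mccc2 call was lost in 11 of 22 fits that left out 1 library (0.36 to 0.43, adjusted p from 0.0516 to 0.0800). These were the fits without CAC 1, CAC 2, Con 1, Con 2, Con 3 or Con 4 of 2 weeks, and without CAC 2, CAC 5, Con 1, Con 3 or Con 5 of 8 weeks. Pcca changed by 0.41 (SE 0.16) without passing (adjusted p = 0.0730), and passed without the 8-week library Con 2 (0.46, adjusted p = 0.0464). Bcat2 changed by 0.62 (SE 0.33) (adjusted p = 0.195), so its difference at 8 weeks was not shown to differ from the 0.26 of 2 weeks. The 2 of 10 members called, both more positive, stand beside 10.2% of all genes in that direction and 11.6% in either direction. After rescaling 0 of 10 were called by limma (all genes in either direction: 7.02%), with Bckdha at 0.40 (SE 0.14) (adjusted p = 0.0694) the nearest. From 2 to 6 weeks 0 of 10 changed by limma (all genes in either direction: 1.33% in TPM and 2.79% after rescaling), with 2 at an unadjusted p under 0.05 in TPM.

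The rest of the pathway was followed through a list of 24 further genes, of which 23 were tested. Bcat1, the cytosolic transaminase, was not tested, at 0.182 to 1.44 TPM at 8 weeks in CAC and Con. For CAC against Con at 8 weeks 12 of 23 were called higher and 0 lower in TPM, about the 52.1% of all genes called higher, with a median of 0.30. After rescaling 5 of 23 were higher and 6 lower, beside 13.5% and 12.8% of all genes, with a median of -0.03. Of 6 transport genes, which bring the amino acids into the cell or its mitochondria, 4 were called higher on both scales: Slc7a8, Slc43a1, Slc3a2 and Slc7a5. Their group was not tested as a whole. Fits with 1 library left out were examined for the 10 members only, not for these further genes. The median of the 6 was 1.11 in TPM and 0.85 after rescaling, beside 0.28 and -0.01 for all genes.

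Slc7a8, which encodes the transporter LAT2, lay between 2.07 and 119 TPM (median 12.1) in CAC. Con read 1.49, 1.91, 1.5, 3.40 and 1.40 TPM. The CAC libraries were spread widely, with library 1 at the top and library 3 inside the Con range. The difference was 2.67 (SE 0.53) (adjusted p = 5.76e-05) and 2.40 after rescaling. Slc43a1, which encodes LAT3, lay between 4.30 and 19.2 TPM (median 10.9) in CAC. Con read 1.65, 2.55, 2.85, 3.69 and 2.52 TPM, below all CAC libraries, and the difference was 1.57 (SE 0.27) (adjusted p = 8.88e-06). Slc3a2, the heavy chain that carries LAT1 and LAT2 to the membrane, differed by 1.28 (SE 0.29) (adjusted p = 0.000254), at 26.6 to 120.3 TPM in CAC and 22.1 to 45.7 in Con. Slc7a5, which encodes LAT1, was low, at 0.560 to 10 TPM (median 1.17) in CAC and 0.261 to 0.980 (median 0.489) in Con. It differed by 0.93 (SE 0.25) (adjusted p = 0.00213). LAT1 and its chain are also made by activated immune cells, and macrophage markers were higher in the same CAC libraries. The part of that in these values was not tested. Slc25a44, the mitochondrial carrier, did not pass: CAC lay between 55.9 and 115 TPM (median 67.9), Con read 54.9, 69.7, 63.6, 58.2 and 55.7 TPM, and the difference was 0.20 (SE 0.12) (adjusted p = 0.136) and -0.15 after rescaling.

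Among genes of control, the phosphatase Ppm1k read 8.10 to 24.4 TPM in CAC and 5.85 to 11.2 in Con, a difference of 0.48 (SE 0.22) that did not pass (adjusted p = 0.0621). Klf15, a transcription factor known to drive genes of this pathway, was called higher by 0.84 (SE 0.26) in TPM (adjusted p = 0.00673), at 37.1 to 139 TPM in CAC and 29.8 to 40.8 in Con. The rescaled value of 0.49 (SE 0.25) did not pass (adjusted p = 0.140). Dld, the E3 subunit shared with other dehydrogenases, stood at 0.03 in TPM and was lower after rescaling (-0.33, adjusted p = 0.00535).

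In the arms, Hsd17b10, the dehydrogenase near the end of isoleucine breakdown, differed most. It lay between 159 and 549 TPM (median 295) in CAC. Con read 108, 127, 109.5, 135 and 123 TPM, and every CAC library was above every Con library. It differed by 1.37 (SE 0.18) (adjusted p = 3.79e-08), and by 1.02 after rescaling (adjusted p = 5.22e-06). By size this was above the difference of any of the 10 members on both scales. Hibch (0.47), Oxct1 (0.41), Pccb (0.35), Auh (0.34), Mut (0.28) and Acadsb (0.24) were called higher in TPM only. The all-gene median was 0.28, and Hibch, Oxct1, Pccb and Auh lay above it. Mcee (-0.62), Mmaa (-0.47), Acat1 (-0.39), Echs1 (-0.31) and Acad8 (-0.24) were called lower after rescaling only. Pccb, the partner subunit of Pcca in the propionyl-CoA carboxylase, was called in TPM while Pcca was not, and the ratio of Pccb to Pcca ran from 1.65 to 2.57 (median 2.16) in CAC and 1.57 to 2.09 (median 1.81) in Con, ranges that overlap.

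**Figure D4:**
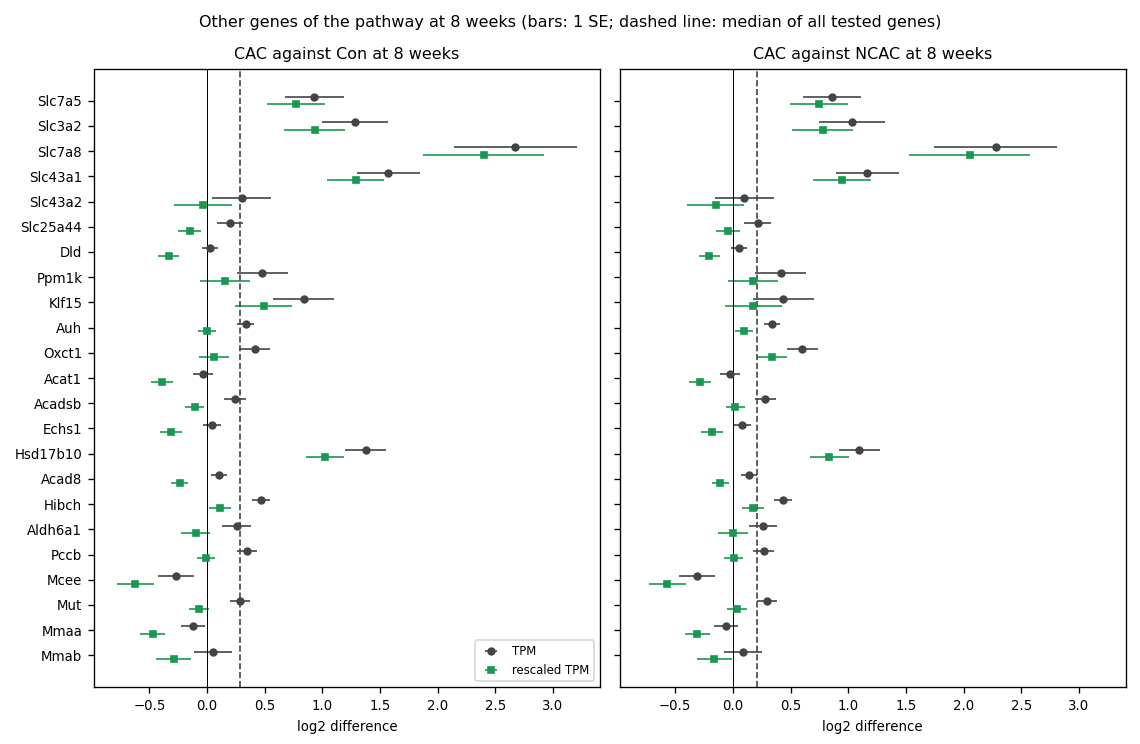
Log2 difference (x axis) of the 23 tested further pathway genes (y axis) for CAC minus Con and CAC minus NCAC at 8 weeks, in TPM (grey circles) and after rescaling (green squares), with bars of 1 SE; the dashed line is the median of all tested genes in TPM. Slc7a8 at 2.67 and Hsd17b10 at 1.37 against Con lie to the right of most genes.

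Against NCAC at 8 weeks 11 of the 23 were higher and 0 lower in TPM (all genes higher: 37.3%), and 6 higher and 3 lower after rescaling (all genes: 12.9% and 11.5%). Slc7a8 (2.28), Slc43a1 (1.17), Hsd17b10 (1.10), Slc3a2 (1.03), Slc7a5 (0.86) and Oxct1 (0.60) were called higher on both scales. Klf15 (0.44, adjusted p = 0.183), Ppm1k (0.41, adjusted p = 0.130) and Slc25a44 (0.22, adjusted p = 0.130) did not pass. At 6 weeks, 2 of the 23 were higher against Con in TPM, a smaller share than the 20.7% of all genes: Dld (0.24) and Hibch (0.22), and neither was called after rescaling. Mut was lower against Con after rescaling (-0.33, adjusted p = 0.0205). Mut (-0.28) and Mmaa (-0.36), which act in the last steps from propionyl-CoA, were lower against NCAC after rescaling at 6 weeks, when Ivd and Hibadh were lower too.

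Across the 12 groups the mean of the 10 members, each centred on its own mean after rescaling, ran from -0.16 in CAC at 6 weeks to 0.09 in Con at 2 weeks. On this rescaled measure CAC had the lowest of the 3 values at every week, while in TPM 9 of the 10 members had a higher fitted mean in CAC than in Con at 8 weeks. The CAC values were -0.11, -0.07, -0.16 and -0.03 at 2, 4, 6 and 8 weeks. The genes outside the pathway lists whose group means ran most like that mean, among 7318 candidates, were Gchfr (r = 0.936), Nit1 (r = 0.936), Vwa8 (r = 0.934), Ttc7 (r = 0.923) and Aldh9a1 (r = 0.921). These correlations cover 12 group means from shared libraries and are a description.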

How the data were processed

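Stranded mRNA libraries (TruSeq) of brown adipose tissue were read on a NovaSeq, per the labels' protocols. The authors deposited 1 table of TPM values (62 libraries, 47643 gene symbols, each library summing to the same total), and the build is mm10, per the submitters' processing notes. The aligner, annotation and strand setting are not given in the sources used here, and depth is unknown.

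Genes at 1 TPM or more in at least 5 libraries (12581) were tested on log2(TPM + 1) with limma 3.58.1 (R 4.3.3, trended empirical Bayes, all 62 libraries in 1 fit of 12 group means), with Benjamini-Hochberg adjustment over all tested genes within each contrast. Rescaling used 14432 genes above 0 in every library. The fit was also run on simulated data with independent noise and no shift of whole libraries, so that run does not bear on how scaling affects the calls. The members and lists were chosen with earlier results of these data known. All members are named; of the other pathway genes, Slc25a44, Ppm1k, Klf15, Bcat1 and any called for CAC at 6 or 8 weeks. Slc43a2, Aldh6a1 and Mmab, called in none of these, are only plotted. A further gene of the pathway is not reported here and is outside the 24 listed. Positions are from GENCODE vM21 and promoter sequences from RefSeq. Alternatives varied the pseudocount, filter, scaling, libraries and replicate block. No 2 libraries were identical (highest pairwise r 0.990).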

Additional observations from a re-analysis of the deposited data

Results flagged for a closer look

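In 10 of 120 gene and group combinations 1 library lay far from the others of its group by Dixon's criterion, which chance meets in about 1 of 20. Dbt, the E2 subunit, accounted for 4: 159.8 TPM in NCAC library 1 at 2 weeks, 206 in CAC library 4 at 4 weeks, 133 in NCAC library 4 at 4 weeks, the lowest of its group, and 209.6 in CAC library 5 at 8 weeks. CAC library 4 at 4 weeks was also high in Bckdhb, at 202 TPM. Bckdhb stood apart in Con library 3 at 2 weeks (170.3 TPM). Bcat2 stood apart in CAC library 5 (230.4 TPM) and NCAC library 4 (248 TPM) at 6 weeks. Mccc1 did so in CAC library 2 at 6 weeks (47.6 TPM), and Pcca in CAC library 2 at 4 weeks (65.2 TPM, the lowest).

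The CAC against Con difference in TPM changed from 2 to 8 weeks, by a direct test of the change, for Bckdha (0.62 on the log2 scale) and Mccc2 (0.43). Neither was called after rescaling, at 0.40 and 0.21.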

How the results depend on the processing

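No member's call differed with a pseudocount of 0.1, with no filter on low values (20773 genes) or with a filter at 5 TPM (8727 genes). The scaling mattered most, and the cause was not tested. For CAC against Con, members called at 2 weeks went from 0 to 2 under rescaling, quantile normalization, removal of mitochondrially encoded genes and a fit of only the groups compared. At 4 weeks they went from 2 to 1 under rescaling and to 0 under the other 3 and without Con libraries 3 and 4. At 6 weeks they went from 0 to 2 under rescaling and to 3 under quantile normalization and removal. At 8 weeks they went from 5 to 3 under all 4, but these were not the same genes. Under rescaling and quantile normalization they were Bcat2, higher, and Bckdk and Hibadh, both lower. Under removal they were Bckdk, Hibadh and Pcca, all lower. With only the groups compared they were Bcat2, Bckdha and Bckdhb, all higher. For CAC against NCAC, they went at 6 weeks from 2 to 4 under quantile normalization and removal and to 1 with only the groups compared, where Hibadh was lost. At 8 weeks they went from 4 to 1 under rescaling, quantile normalization and only the groups compared, and to 2 under removal. Under rescaling and quantile normalization the call left was Bckdk, lower, and with only the groups compared it was Bcat2, higher. Under removal the calls were Bckdk and Hibadh, both lower. The change from 2 to 8 weeks went from 2 to 0 under all 3 scalings, and Pcca was added to its calls with only the groups compared (0.41, adjusted p = 0.0452).

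Against Con at 8 weeks these log2 differences, called in TPM or under the alternative, turned negative: Bckdha -0.0490 (rescaling), -0.0252 (quantile) and -0.0941 (removal), Bckdhb -0.0630, -0.0872 and -0.11, Mccc1 -0.0511, -0.0587 and -0.0966, Mccc2 -0.0822, -0.0747 and -0.13, Hibadh -0.23, -0.22 and -0.27, and Pcca -0.29 (removal; -0.24 and not called under rescaling). Dbt (-0.19) and Ivd (-0.19) were also negative under rescaling, called on neither scale. Against NCAC at 8 weeks Mccc2 went to -0.00845 under rescaling, and under removal Bckdha went to -0.0108, Mccc2 to -0.0345 and Hibadh to -0.20. Bcat2 against Con stayed positive but was not called under removal (0.48, adjusted p = 0.0634). In all, 262 of 2800 member values differed in sign while passing in neither fit.

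With 1 library left out at a time, members called in TPM ran for CAC against Con from 0 to 1 at 2 weeks, 0 to 3 at 4 weeks and 3 to 6 at 8 weeks, for CAC against NCAC from 1 to 2 at 6 weeks and 0 to 5 at 8 weeks, for NCAC against Con from 0 to 1 at 4 weeks, and for the change from 2 to 8 weeks from 1 to 3. Leaving out libraries on the rescaled values was added after seeing the data. In these fits the members called ran for CAC against Con from 0 to 3 at 2 and 4 weeks and from 1 to 4 at 8 weeks, for CAC against NCAC from 0 to 2 at 8 weeks, and for the change from 2 to 8 weeks from 0 to 1. They stayed at 2 in both comparisons at 6 weeks. Without Con libraries 3 and 4 at 4 weeks the rescaled count went from 1 to 0.

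Libraries with the same replicate number did not deviate together (mean r -0.00345 over 60 pairs, 0.00111 over 260 other pairs), so the numbers were not taken to pair them. With the number as a replicate block Bcat2 against NCAC at 8 weeks was not called (0.53, adjusted p = 0.0925), and no other member's call changed. Without counts, the depth behind low genes such as Slc7a5 is unknown.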
